A study of Mus musculus with 6 samples.

Results

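The granule cells of the dentate gyrus were described through 9 genes enriched in these cells, namely Prox1, Calb1, C1ql2, Pdyn, Trpc6, Tdo2, Lct, Dsp and Npnt. They were named as granule cell genes by cell type, with earlier results of these data known. All 9 were among the 25239 genes listed in the counts and among the 14445 that passed the filter on low counts and were tested. The RNA came from the hippocampus of C57BL/6 males, 6 to 8 weeks old, of which 3 were WT (Ube3a m+/p+) and 3 were Ube3a m-/p+, and each mouse gave 1 library. The Ube3a m-/p+ mouse, hereafter the mutant, models Angelman syndrome and inherits a defective Ube3a gene from its mother in every cell and keeps the intact copy from its father, which neurons largely silence. The comparison of the genotypes addressed whether the loss of UBE3A, a ubiquitin ligase and coactivator of nuclear receptors, alters hippocampal transcripts. The study named Calb1 among the genes lower in the mutant in RNA-seq of these mice. It followed Calb1 up by RT-qPCR and reported a decrease there too.

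Granule cells receive the input of the entorhinal cortex to the hippocampus and send their axons, the mossy fibres, to the mossy cells of the hilus and to the pyramidal cells of CA3. The transcription factor PROX1 gives these cells their identity and stays on throughout life, whereas the calcium buffer calbindin appears as they mature. In RNA of the whole hippocampus, fewer granule cells and less RNA per granule cell cannot be told apart, and calbindin is also made by CA1 pyramidal cells and some interneurons.

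The libraries held 7293272 to 8675252 counts on genes in WT mice and 8871052 to 11314409 in Ube3a m-/p+ mice. Ube3a had 103, 140 and 149 CPM (counts relative to the library total) for WT mice 1 to 3, against 97.0, 83.3 and 81.9 CPM for mutant mice 1 to 3, so that the mutant values lay wholly below the WT values (log2 fold change -0.58, adjusted p = 0.0363, edgeR). After the correction described next its log2 fold change was -0.20 (adjusted p = 0.240, edgeR) and the genotypes overlapped. On the opposite strand, exons of Snhg14, Gm44560 and 9330162G02Rik cover 1803, 2025 and 1796 of the exonic bases of Ube3a, and the strand setting of the counting is not given in the sources used here. All CPM per mouse are scaled by TMM, a factor that evens out the composition of the libraries. The libraries also differed in how expression followed the GC content of the transcripts. For WT mice 1 to 3, Spearman's rho of this relation across 14201 genes (each gene's deviation from its own mean over all libraries, genes being no independent replicates) was 0.045, -0.506 and -0.571, against 0.059, 0.526 and 0.528 for mutant mice 1 to 3. This gradient moved with genotype in the mice numbered 2 and 3. The differences are therefore also given after every library was corrected for the GC content and the length of the transcripts. Corrected values are given for the 9 genes throughout and for other genes where the value moved by over 1.5 times. In mice 2 and 3 the gradient and genotype ran together, so the correction can also remove a genotype difference that follows GC content. The 2 cannot be told apart here, and neither set of values is taken as the truer one. Markers of CA1, CA2 and CA3 pyramidal cells, interneurons, mossy cells and immature granule cells were all detected in every library.

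None of the 9 genes was differentially expressed between the genotypes (edgeR; adjusted p under 0.05 with a change of over 1.2-fold). The share over all tested genes was 2.01% (290 of 14445 genes). No gene at all was called without WT mouse 2, WT mouse 3 or mutant mouse 2 (2075, 2159 and 2128 genes at an unadjusted p below 0.05, edgeR), so the calls named here rest on all of these mice. At an unadjusted p below 0.05, Calb1 was lower and C1ql2 was higher in Ube3a m-/p+ mice. These were 1 of 9 genes in each direction, against 12.2% of all tested genes higher and 12.4% lower. Calb1 was the single gene without overlap between the genotypes, with lower mutant values, and the other 8 overlapped. Over all tested genes, the values of Ube3a m-/p+ mice lay wholly above those of WT mice in 11.9% and wholly below in 13.0%. The median log2 fold change was -0.04 over the 9 genes, 4 of them higher and 5 lower, and 0.0025 over all tested genes. When DESeq2 was used, 2 of the 9 genes were differentially expressed, Calb1 (adjusted p = 0.0257, DESeq2) and C1ql2 (adjusted p = 0.0173, DESeq2), against 6.69% of all tested genes. After the GC and length correction none of the 9 had an unadjusted p below 0.05, against 14.2% of all genes (edgeR).

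**Figure D1:**
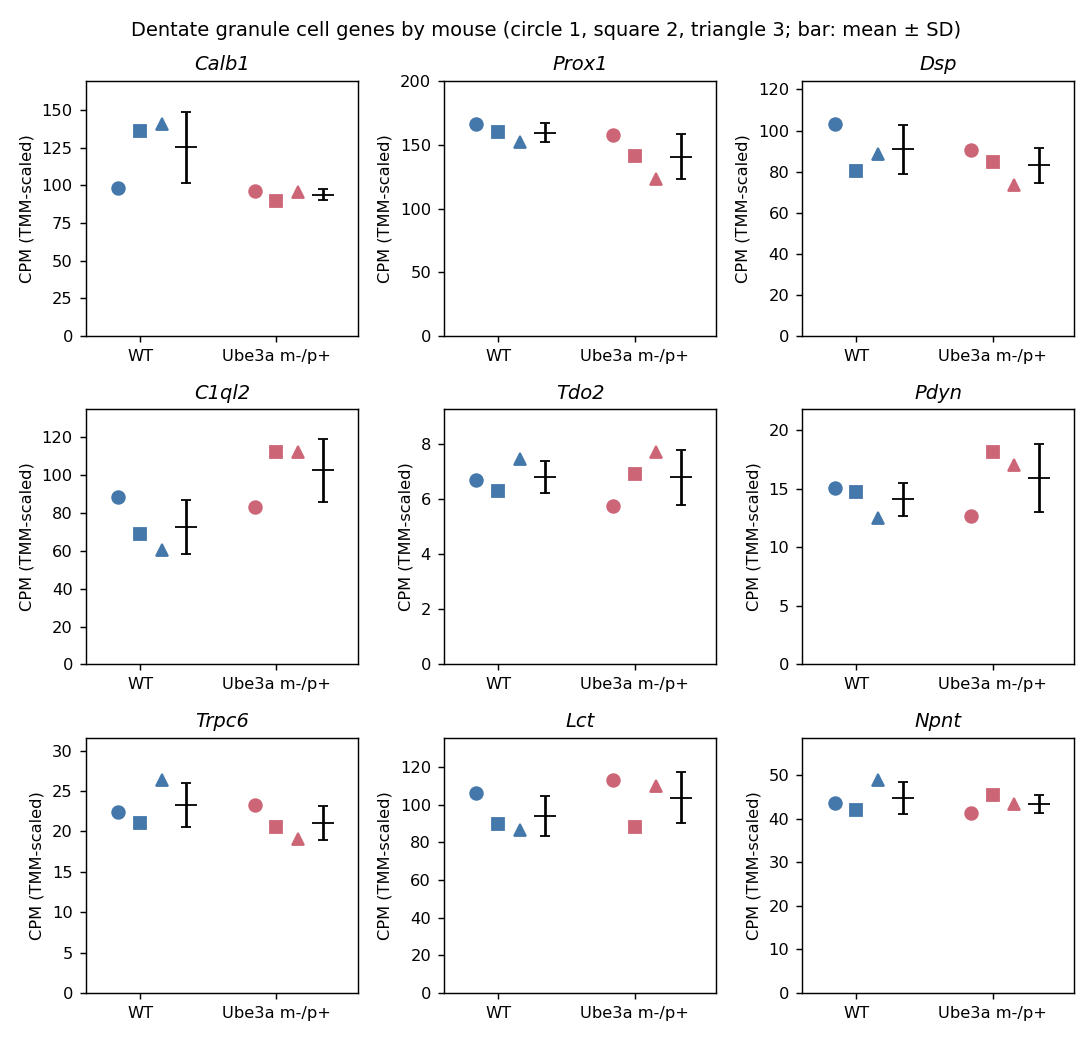
Expression of the 9 granule cell genes in each mouse, in TMM-scaled CPM on linear axes that start at 0; points are single mice and bars are the mean ± SD of 3 mice. Calb1 is the gene whose genotypes do not overlap (89.7 to 96.0 CPM in Ube3a m-/p+ mice, 98.0 to 141 CPM in WT mice), and in C1ql2 the Ube3a m-/p+ mice 2 and 3, both at 112 CPM, lie above all WT mice.

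Prox1, which encodes the homeobox factor that sets granule cell identity, lies on the minus strand at chr1:190118035-190170714 (GENCODE M21 on GRCm38, the assembly of mm10) and has 5 exons in its longest transcript. It measured 167, 160 and 153 CPM for WT mice 1 to 3, against 158, 141 and 124 CPM for mutant mice 1 to 3. Mutant mice 2 and 3 lay below all WT mice, whereas mutant mouse 1 lay among them. The WT mean was 159.9 ± 7.18 CPM (SD, n = 3) and the mutant mean 141 ± 17.3 CPM (SD, n = 3). On the log2 scale the mutant differed from the WT by -0.18, with a 95% interval from -0.39 to 0.02 (adjusted p = 0.251, edgeR), and it was -0.03 after the GC and length correction (adjusted p = 0.887, edgeR). An antisense gene, Prox1os, overlaps 133 of the 8390 exonic bases of Prox1.

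Calb1, which encodes the cytosolic calcium buffer calbindin, was lower in Ube3a m-/p+ mice by 1.33-fold, a difference that did not pass the adjusted threshold. The gene lies on the plus strand at chr4:15881264-15908064, with 11 exons in its longest transcript. The RT-qPCR primers of the study for Calb1 are shown here because they mark the part of the transcript that was followed up; they are written in lower case, 5′ to 3′.
Calb1 forward primer: tctggcttcatttcgacgctg
Calb1 reverse primer: acaaaggatttcatttccggtga
The forward primer matched coding sequence of exon 1 (chr4:15881454-15881474) and the reverse primer matched the opposite strand in exon 3 (chr4:15885593-15885615). The product of 130 bp thus crosses introns and was found in 2 of the 3 annotated transcripts.

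The WT mice had 98.0, 136 and 141 CPM of Calb1, on 833, 1186 and 1040 counts, and the Ube3a m-/p+ mice had 96.0, 89.7 and 95.9 CPM, on 850, 1010 and 993 counts. The mutant mice lay close together below all WT mice, but WT mouse 1 stood nearer to them than to the other WT mice. The WT mean was 125 ± 23.6 CPM (SD, n = 3) and the mutant mean 93.9 ± 3.59 CPM (SD, n = 3). The log2 fold change was -0.41 (standard error 0.118, 95% interval -0.67 to -0.16, adjusted p = 0.0632, edgeR), and the exact permutation test over mice gave a two-sided p = 0.1, the smallest that 3 against 3 mice allow. After the GC and length correction the log2 fold change was -0.06 (adjusted p = 0.781, edgeR), and the values of the genotypes overlapped. With WT mouse 1 left out, the log2 fold change was -0.56 (adjusted p = 0.00119, edgeR). Leaving out any other single mouse gave -0.43 to -0.32, and adjusted p of 0.0531 to 0.303 (edgeR).

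Calcium is handled in granule cells by buffers such as calbindin, by sensors, by the phosphatase calcineurin and by pumps and exchangers of the membrane. Of 16 such genes tested, none was differentially expressed upward and 1 downward, Slc8a1, the sodium-calcium exchanger (log2 fold change -0.45, adjusted p = 0.0362, edgeR), which was at -0.17 after the correction (adjusted p = 0.234, edgeR). At an unadjusted p below 0.05, 2 were higher and 6 were lower. Over all tested genes these shares were 12.2% and 12.4%, and after the correction 2 of the 16 were at such a p in either direction, against 14.2% of all genes. The median log2 fold change of the 16 was 0.02, and -0.02 after the correction. The related buffer Calb2, which marks mossy cells and immature granule cells, stood at 0.43 (adjusted p = 0.238, edgeR), and at 0.25 after the correction. Of the abundant genes of the group, Ppp3ca, a calcineurin subunit gene, stood at -0.26 and Calm3, a calmodulin gene, at 0.32, with adjusted p of 0.0977 and 0.0632 (edgeR). After the correction they were at -0.13 and 0.09.

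C1ql2, which encodes a secreted protein of the C1q family that mossy fibre terminals release and that gathers kainate receptors at their synapses, was higher in Ube3a m-/p+ mice by 1.41-fold, also short of the adjusted threshold. It lies on the plus strand at chr1:120340582-120343174 and has 2 exons. The WT mice had 88.1, 68.9 and 60.6 CPM, on 749, 599 and 447 counts, and the Ube3a m-/p+ mice had 83.3, 112 and 112 CPM, on 738, 1262 and 1159 counts. Mutant mice 2 and 3 lay above all WT mice, whereas mutant mouse 1 lay below WT mouse 1. The WT mean was 72.5 ± 14.1 CPM (SD, n = 3) and the mutant mean 102 ± 16.6 CPM (SD, n = 3). The log2 fold change was 0.50 (standard error 0.141, 95% interval 0.19 to 0.80, adjusted p = 0.0677, edgeR), and the exact permutation test gave a two-sided p = 0.2. After the GC and length correction it was 0.16, with an interval from -0.01 to 0.33 (adjusted p = 0.376, edgeR). Without WT mouse 1 it was 0.66 (adjusted p = 0.00442, edgeR), and without Ube3a m-/p+ mouse 1 it was 0.63 (adjusted p = 0.00863, edgeR). Leaving out any of the other 4 mice gave 0.39 to 0.46 with adjusted p between 0.226 and 0.292 (edgeR).

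Calb1 and C1ql2 also have the lowest and the highest GC content of the 9 transcripts. A coding stretch of each is shown to make this difference in base composition visible, taken from the start of the longest coding piece within an exon (GENCODE M21), 5′ to 3′, with G and C in capitals.
Calb1, exon 11, chr4:15904650-15904760, plus strand: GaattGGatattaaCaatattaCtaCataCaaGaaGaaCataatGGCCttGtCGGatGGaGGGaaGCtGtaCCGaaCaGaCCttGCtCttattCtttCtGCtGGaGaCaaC
C1ql2, exon 1, chr1:120341118-120341237, plus strand: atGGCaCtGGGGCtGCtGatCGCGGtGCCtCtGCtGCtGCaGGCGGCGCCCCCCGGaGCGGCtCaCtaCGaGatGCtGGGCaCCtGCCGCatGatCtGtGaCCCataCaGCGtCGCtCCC
The stretch of Calb1 holds 40.5% G and C over 111 bases and that of C1ql2 holds 68.3% over 120 bases. Over the whole coding sequence the shares were 43.2% (783 bases) and 64.8% (861 bases), and over the longest transcript 36.8% and 63.4%. The other 7 transcripts lay between these ends, from Tdo2 at 39.6% and Prox1 at 45.3% to Pdyn at 51.9% and Lct at 52.9%. Over the 9 genes, the log2 fold change followed GC content with a Spearman's rho of 0.80, and of 0.283 after the correction. This is a description over 9 genes measured in the same 6 libraries, without a test. The absolute log2 fold change had a median of 0.145 before and 0.0882 after the correction in the 9 genes, and of 0.181 and 0.118 over all genes.

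**Figure D2:**
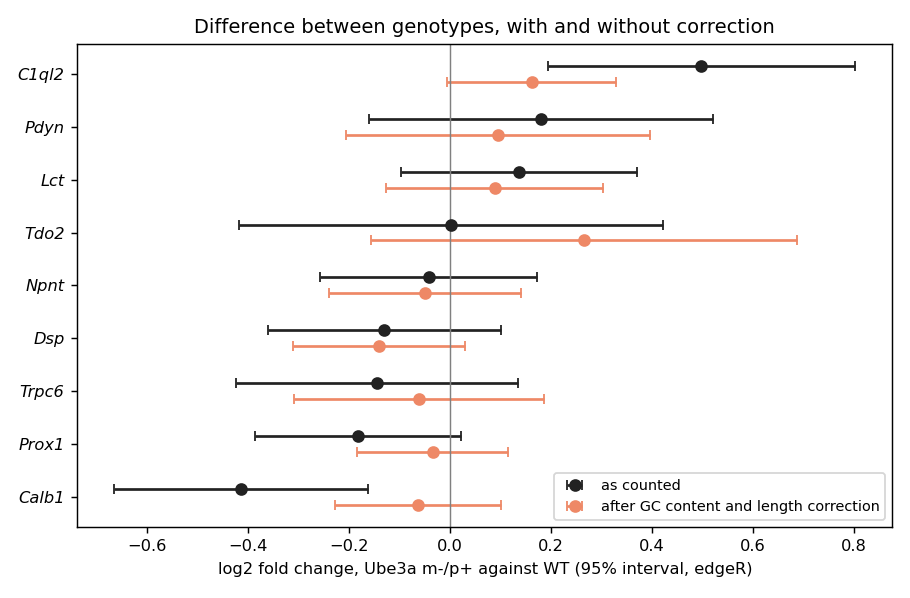
Log2 fold change of each granule cell gene in Ube3a m-/p+ mice against WT mice (x axis), with its 95% interval from edgeR, as counted (black) and after the GC and length correction (orange). As counted, the intervals of C1ql2 (0.19 to 0.80) and Calb1 (-0.67 to -0.16) leave out 0; after the correction all 9 intervals hold 0.

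The other genes of the C1q-like group and its synaptic partners comprised 10 genes, of which C1ql4 had 0 counts in every library and 9 were tested. None of them was differentially expressed (edgeR). At an unadjusted p below 0.05 there were 1 higher and 2 lower, against 12.2% and 12.4% of all tested genes. C1ql3, which is made by the same mossy fibres and assembles with C1QL2, had a WT mean of 225 ± 21.0 CPM (SD, n = 3) and a mutant mean of 183 ± 5.28 CPM (SD, n = 3). Its log2 fold change was -0.30 (adjusted p = 0.0642, edgeR), opposite in sign to that of C1ql2. In contrast to C1ql2, it was larger in size after the correction, at -0.41 (adjusted p = 0.0136, edgeR). C1ql1 stood at 0.85 (adjusted p = 0.0518, edgeR), and at 0.46 after the correction (adjusted p = 0.250, edgeR). The kainate receptor subunit gene Grik2 was at -0.29, the C1QL receptor gene Adgrb3 at -0.16 and Nrxn3 at -0.07, with adjusted p between 0.0866 and 0.689 (edgeR), and their signs turned with the correction, to 0.07, 0.06 and 0.02.

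Pdyn, which encodes prodynorphin, the precursor of the dynorphin opioid peptides stored in mossy fibres, lies on the minus strand at chr2:129686565-129699844. Its levels were 15.1, 14.7 and 12.5 CPM for WT mice 1 to 3, against 12.6, 18.1 and 17.0 CPM for mutant mice 1 to 3, on 92 to 204 counts. As in C1ql2, mutant mice 2 and 3 lay above all WT mice and mutant mouse 1 lay among them. This gave a log2 fold change of 0.18, with an interval from -0.16 to 0.52 (adjusted p = 0.516, edgeR), and 0.10 after the correction (adjusted p = 0.831, edgeR). Of 10 other genes of the opioid system, 7 were tested and none was differentially expressed (edgeR). At an unadjusted p below 0.05, 1 was lower, against 12.4% of all tested genes. Oprk1, which encodes the kappa receptor for dynorphin, had 27 counts over the 6 libraries and was not tested. Penk, the precursor gene of the enkephalins, had a log2 fold change of -0.09, and the 3 most abundant genes Cpe, Pcsk2 and Oprl1 had 0.01, -0.05 and 0.22 (adjusted p between 0.249 and 0.968, edgeR). After the correction Penk was at -0.24, Cpe at -0.03 and Pcsk2 at 0.03.

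Trpc6, which encodes a cation channel opened by diacylglycerol, lies on the plus strand at chr9:8544142-8680741. It measured 22.4, 21.0 and 26.3 CPM for WT mice 1 to 3, against 23.3, 20.6 and 19.1 CPM for mutant mice 1 to 3. Mutant mice 2 and 3 lay below all WT mice, whereas mutant mouse 1 lay above WT mice 1 and 2. The log2 fold change was -0.15 (interval -0.42 to 0.13, adjusted p = 0.522, edgeR) and -0.06 after the correction. All 5 other TRPC channel genes were tested and none was differentially expressed (edgeR). At an unadjusted p below 0.05, 1 was lower, Trpc5 (-0.31, adjusted p = 0.108, edgeR), against 12.4% of all tested genes. Trpc1 and Trpc4 had log2 fold changes of -0.22 and -0.06 (adjusted p of 0.213 and 0.753, edgeR), and of -0.095 and -0.01 after the correction.

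Tdo2 encodes tryptophan dioxygenase, the enzyme that opens the kynurenine pathway, and lies on the minus strand at chr3:81957090-81976202. It was the least abundant of the 9 genes, on 51 to 80 counts per library. It had 6.71, 6.32 and 7.46 CPM for WT mice 1 to 3, against 5.76, 6.93 and 7.73 CPM for mutant mice 1 to 3, so that the lowest and the highest value were both from mutant mice. The difference on the log2 scale was 0.0021, with an interval from -0.42 to 0.42 (adjusted p = 0.995, edgeR), so that a log2 difference of up to 0.42 in either direction could not be told from 0 at this depth. After the correction it was 0.27 (adjusted p = 0.599, edgeR). Of 11 other kynurenine pathway genes, 4 passed the filter and none was differentially expressed (edgeR). At an unadjusted p below 0.05, Kyat1 was higher and Kyat3 lower, against 12.2% and 12.4% of all tested genes. Their log2 fold changes were 0.33 for Kyat1 and -0.62 for Kyat3, with adjusted p of 0.191 and 0.109 (edgeR), and that of Ido2 was -0.0023. After the correction Kyat1 was at 0.17, Kyat3 at -0.60 and Ido2 at -0.03. Kmo, which encodes the enzyme of the branch toward quinolinic acid, had 1 count over the 6 libraries.

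Lct encodes lactase, the intestinal enzyme that splits milk sugar, whose transcript also marks granule cells. The gene lies on the minus strand at chr1:128284756-128328318. It measured 106, 89.7 and 86.5 CPM for WT mice 1 to 3, against 113, 88.2 and 110 CPM for mutant mice 1 to 3. Mutant mice 1 and 3 lay above all WT mice and mutant mouse 2 lay among them. The mutant was higher by a log2 fold change of 0.14 (interval -0.10 to 0.37, adjusted p = 0.461, edgeR) and 0.09 after the correction (adjusted p = 0.758, edgeR).

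Dsp encodes desmoplakin, which ties cell junctions to intermediate filaments, and lies on the plus strand at chr13:38151294-38198577. It had 103, 80.3 and 88.7 CPM for WT mice 1 to 3, against 90.6, 84.9 and 73.6 CPM for mutant mice 1 to 3. The genotypes overlapped, with only mutant mouse 3 below all WT mice. The resulting log2 fold change was -0.13 (interval -0.36 to 0.10, adjusted p = 0.482, edgeR) and -0.14 after the correction (adjusted p = 0.460, edgeR). The antisense gene Gm10129 overlaps 499 of its 9659 exonic bases. Of 11 other desmosome genes, 6 were tested, with none differentially expressed and none at an unadjusted p below 0.05 (edgeR), and Dsg1a had 0 counts in every library. The 3 most abundant were Pkp4 (0.01), Pkp2 (-0.14) and Jup (0.13), with adjusted p between 0.427 and 0.961 (edgeR), of which Pkp4 (-0.05) and Jup (-0.09) changed sign with the correction.

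Npnt encodes nephronectin, a matrix protein bound by the integrin of the Itga8 and Itgb1 subunits, and lies on the minus strand at chr3:132881745-132950291. Its levels were 43.5, 42.0 and 48.8 CPM for WT mice 1 to 3, against 41.3, 45.4 and 43.5 CPM for mutant mice 1 to 3, with mutant mouse 1 just below all WT mice and the others within their range. As a log2 fold change this was -0.04 (interval -0.26 to 0.17, adjusted p = 0.830, edgeR) and -0.05 after the correction. All 7 receptor and matrix genes chosen beside it were tested and none was differentially expressed (edgeR). At an unadjusted p below 0.05, 1 was lower, against 12.4% of all tested genes. That gene was Itgav, at -0.40 (adjusted p = 0.0925, edgeR), while Itga8 was at -0.15, Itgb1 at -0.13 and Itgb5 at 0.21 (adjusted p between 0.278 and 0.469, edgeR). After the correction these were at -0.20, 0.02, -0.01 and 0.03.

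The members were next compared with one another by level, in TMM-scaled CPM per kilobase of the longest transcript. In WT mice the order of the means ran from C1ql2 (36.3 ± 7.05, SD, n = 3) and Calb1 (29.6 ± 5.59) over Prox1 (20.2 ± 0.908), Lct (15.3 ± 1.73), Npnt (9.69 ± 0.778), Dsp (9.46 ± 1.22), Trpc6 (7.13 ± 0.842) and Pdyn (5.90 ± 0.588) to Tdo2 (1.99 ± 0.168). The values of the 3 WT mice overlapped between C1ql2 and Calb1 and between Npnt and Dsp, and not between the other neighbours. In Ube3a m-/p+ mice C1ql2 stood at 51.2 ± 8.28 (SD, n = 3) and Calb1 at 22.2 ± 0.851 (SD, n = 3), and these did not overlap. All these levels are without the GC and length correction, after which the log2 fold changes of C1ql2 and Calb1 were 0.16 and -0.06. The part of the GC gradient in the distance between these 2 genes was not tested. Prox1 (17.8 ± 2.19) overlapped with Lct (16.8 ± 2.19) in the mutant, Npnt with Dsp, and Pdyn (6.67 ± 1.21) with Trpc6 (6.44 ± 0.644), which had changed places.

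**Figure D3:**
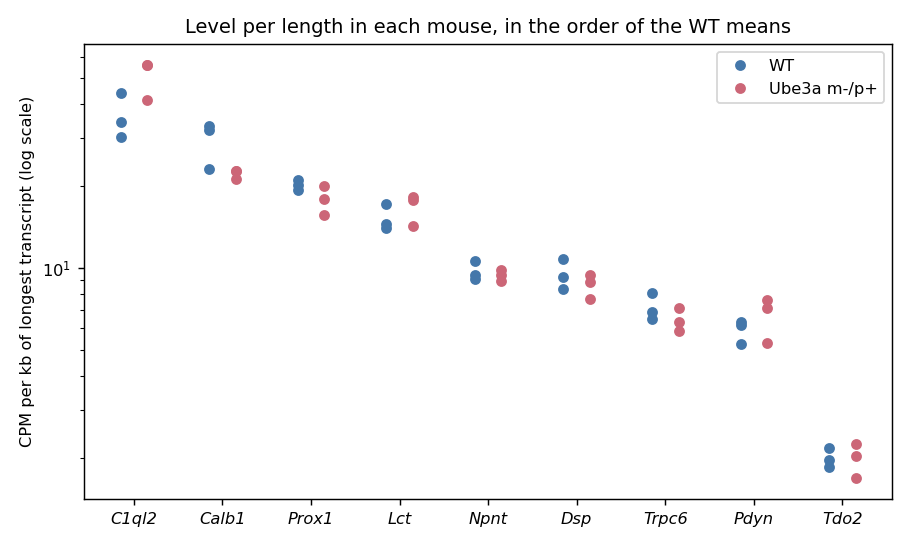
Level of each granule cell gene per length in each mouse (y axis, TMM-scaled CPM per kilobase of the longest transcript, log scale), ordered by the WT means, with WT mice in blue and Ube3a m-/p+ mice in red. C1ql2 and Calb1 overlap in WT mice and are apart in Ube3a m-/p+ mice (means of 51.2 and 22.2), while Tdo2 lies lowest in all mice. The levels are without the GC and length correction.

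The 9 genes together made up 650, 619 and 625 CPM for WT mice 1 to 3, against 624, 607 and 602 CPM for mutant mice 1 to 3. These sums overlapped between the genotypes. Without Calb1 and C1ql2 the sums were 464, 414 and 423 CPM in WT mice and 445, 405 and 394 CPM in Ube3a m-/p+ mice, which also overlapped. The 9 genes differed in their pattern over the 6 libraries. By the root mean square difference of their centred log2 CPM over the 6 libraries, the closest pair was Prox1 and Dsp (0.0975) and the farthest was Calb1 and C1ql2 (0.575). These distances were taken before the GC and length correction, and the part of the GC gradient in them was not tested.

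Counts were also taken relative to Prox1 within each library, which removes the depth of the library; this comparison was chosen after the values were seen and covered 8 ratios. The ratio of Calb1 to Prox1 was 0.587, 0.852 and 0.924 for WT mice 1 to 3, against 0.607, 0.635 and 0.776 for mutant mice 1 to 3. These values overlapped, with a log2 difference of -0.21 (exact permutation test, two-sided p = 0.4), and -0.03 after the GC and length correction (p = 0.9, exact permutation test). The ratio of C1ql2 to Prox1 was 0.528, 0.430 and 0.397 in WT mice and 0.527, 0.793 and 0.906 in Ube3a m-/p+ mice, with mutant mice 2 and 3 above all WT mice. The log2 difference was 0.69 (exact permutation test, two-sided p = 0.2), and 0.19 after the GC and length correction (p = 0.3, exact permutation test). The log2 differences of the other 6 ratios were all positive, between 0.04 for Trpc6 and 0.35 for Pdyn (exact permutation test, p between 0.2 and 0.9). Prox1, the shared denominator, was itself at a log2 fold change of -0.18, and Trpc6 (-0.15), Dsp (-0.13) and Npnt (-0.04) were lower as counted. After the correction the ratios of Trpc6, Dsp and Npnt were at -0.03, -0.10 and -0.02. Those of Pdyn, Lct and Tdo2 were then at 0.11, 0.11 and 0.28.

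**Figure D4:**
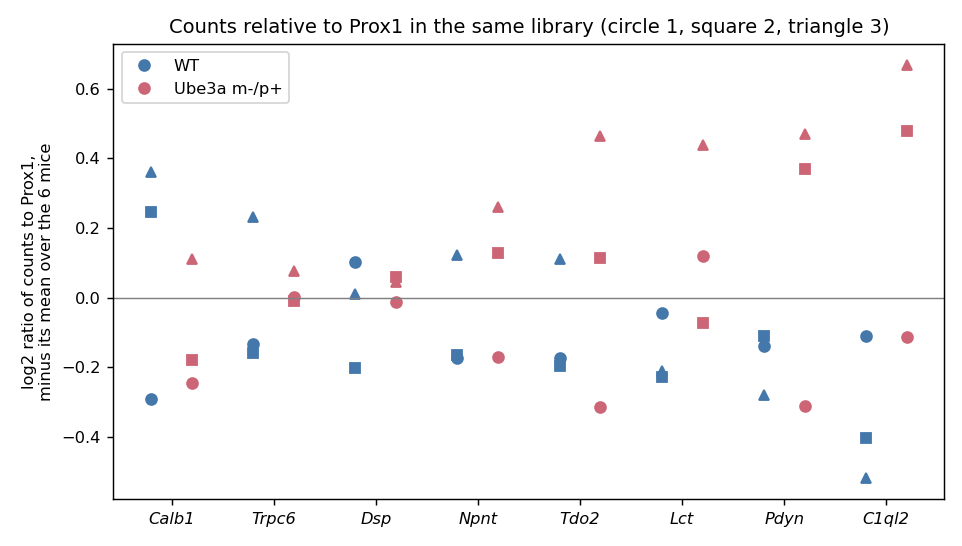
Log2 ratio of the counts of 8 granule cell genes to those of Prox1 in the same library, minus the mean over the 6 mice (y axis); circles, squares and triangles are mice 1, 2 and 3. For C1ql2 the Ube3a m-/p+ mice 2 and 3 lie above all WT mice, and for Calb1 the genotypes overlap.

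The genes nearest in pattern to each member were sought among 10427 genes with a mean of at least 10 CPM. The measure was the root mean square difference of centred log2 CPM over the 6 libraries. It was taken before the GC and length correction, so the GC gradient of the libraries is part of these patterns. The nearest to Calb1 were Gtf2a2 (0.0338), Selenot (0.0414) and Kdm1b (0.0416), and the nearest to C1ql2 were Cox17 (0.0268), Atp5g3 (0.0355) and Rasl10b (0.0355). Unc13b (0.0283) lay nearest to Prox1, Mios (0.0452) to Dsp, Cpsf4 (0.0407) to Pdyn, Itga8 (0.0218) to Trpc6, Stx18 (0.0348) to Tdo2, Nrg2 (0.0365) to Lct and Cln8 (0.0205) to Npnt. No other member was among the 3 nearest genes of any member.

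Granule cell genes beyond the 9 were examined in a wider list of 18 genes, all tested. Of these, 1 was differentially expressed, Rfx3, a transcription factor gene, which fell from a WT mean of 134 ± 5.09 CPM (SD, n = 3) to a mutant mean of 97.5 ± 10.8 CPM (SD, n = 3) (log2 fold change -0.46, adjusted p = 0.0362, edgeR). After the correction Rfx3 was at -0.17 (adjusted p = 0.284, edgeR). The list also holds C1ql3, which was at -0.30 as counted (adjusted p = 0.0642, edgeR) and at -0.41 after the correction (adjusted p = 0.0136, edgeR). The mutant lay wholly above the WT in 3 of the 18 and wholly below in 5, against 11.9% and 13.0% of all tested genes. At an unadjusted p below 0.05, 4 were higher and 5 lower, against 12.2% and 12.4% of all tested genes, and after the correction 4 of the 18 were at such a p in either direction, against 14.2% of all genes. The log2 fold changes were positive in 9 and negative in 9, with a median of -0.03. Slc30a3, the zinc transporter gene of mossy fibre vesicles, stood at 0.29 (adjusted p = 0.0874, edgeR) and Dock10 at -0.15 (adjusted p = 0.347, edgeR). Both were at 0.01 after the correction. Of the 9 markers of immature granule cells, none was differentially expressed (edgeR), with 1 higher and 2 lower at an unadjusted p below 0.05. Those lower were Sox11 (-0.59, adjusted p = 0.0533, edgeR) and Dcx (-0.48, adjusted p = 0.0807, edgeR), and the one higher was Tubb3 (0.34, adjusted p = 0.0640, edgeR). After the correction they were at -0.46, -0.20 and 0.10. Of the 9 markers, 5 had a positive log2 fold change, with a median of 0.02, and 3 after the correction, with a median of -0.03.

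Among 12 genes chosen as partners of Prox1 or regulators of the dentate gyrus, mostly transcription factors and the receptor gene Notch1, 11 were tested and Nr5a2 had 0 counts in every library. Neurod1, Neurod2, Zbtb20 and Bcl11b also belong to the wider granule cell list, and Lef1 to the thalamus and striatum markers. The nuclear receptor genes Rora (log2 fold change -0.62, adjusted p = 0.0387, edgeR) and Rorb (-0.60, adjusted p = 0.0362, edgeR) fell. After the correction they were at -0.34 and -0.35, with adjusted p of 0.165 and 0.146 (edgeR). As counted, 2 of the 11 were differentially expressed, against 2.01% of all tested genes. At an unadjusted p below 0.05, 1 was higher and 4 lower, against 12.2% and 12.4%. The mutant lay wholly below the WT in 5 and wholly above in 0, against 13.0% and 11.9%. The log2 fold change was negative in 10 of the 11, against 7172 of 14445 tested genes, with a median of -0.14. After the correction it was negative in 9 of the 11, and 4 were at an unadjusted p below 0.05, against 14.2% of all genes (edgeR). The 3 most abundant were Bcl11b (-0.14), Neurod2 (0.27) and Neurod6 (-0.10), with adjusted p between 0.152 and 0.575 (edgeR). After the correction Neurod2 was at 0.06 and Neurod6 at 0.07, with its sign turned.

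Other cells of the dissected tissue were followed by their markers. Of 8 CA1 markers, some of which belong to cells that also make calbindin, none was differentially expressed (edgeR) and 3 were lower at an unadjusted p below 0.05. Their summed level, in CPM on all gene counts, was 1039.7 to 1055 in WT mice and 926 to 958 in Ube3a m-/p+ mice, without overlap and on the same side as Calb1. Their log2 fold changes were negative in 6 of 8, and in 8 of 8 after the correction. After it, 4 of the 8 were at an unadjusted p below 0.05, against 14.2% of all genes (edgeR). The part of CA1 cells in the lower Calb1 was not tested. Of 6 CA2 markers Pcp4 rose (log2 fold change 0.57, adjusted p = 0.0362, edgeR), also after the correction (0.49, adjusted p = 0.0131, edgeR). The log2 fold change was negative in 4 of the 6, with a median of -0.03 over the list (-0.10 after the correction), and Map3k15 was at -0.28 (adjusted p = 0.0907, edgeR), with the mutant wholly below the WT. None of the 8 CA3, 11 interneuron and 6 mossy cell markers was differentially expressed (edgeR). At an unadjusted p below 0.05, 2 CA3 markers were higher, 2 interneuron markers higher and 2 lower, and 2 mossy cell markers lower. Over all tested genes these shares were 12.2% higher and 12.4% lower. After the correction 0 CA3, 5 interneuron and 1 mossy cell markers were at such a p in either direction, against 14.2% of all genes.

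Of 10 markers of thalamus and striatum, all detected in every library, 7 had a positive log2 fold change and 3 a negative one. The median was 0.32 (0.14 after the correction). Ppp1r1b rose (0.47, adjusted p = 0.0486, edgeR), and was at 0.18 after the correction (adjusted p = 0.392, edgeR). The 3 lower were Tcf7l2 (-0.35, adjusted p = 0.280, edgeR), with the mutant wholly below the WT, Slc17a6 (-0.17) and Lef1 (-0.13). After the correction these were at -0.29, 0.01 and -0.04. The sum of the 10 markers was 134 to 158 CPM in WT mice and 165 to 181 CPM in Ube3a m-/p+ mice, without overlap. This sum was taken in CPM on all gene counts, without TMM and without the GC and length correction. Ppp1r1b and Prkcd were the most abundant in it, with TMM-scaled means of 53.0 and 39.5 CPM. Of 12 markers of meninges and choroid plexus, 11 had a positive log2 fold change, with a median of 0.44, and Col1a1 rose (0.73, adjusted p = 0.0416, edgeR; 0.55 and 0.0750 after the correction). Their sum, also in CPM on all gene counts, ran from 189 to 2319 CPM in WT mice and from 196 to 2425 CPM in Ube3a m-/p+ mice. The part of this other tissue in the values of the granule cell genes was not tested.

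**Figure D5:**
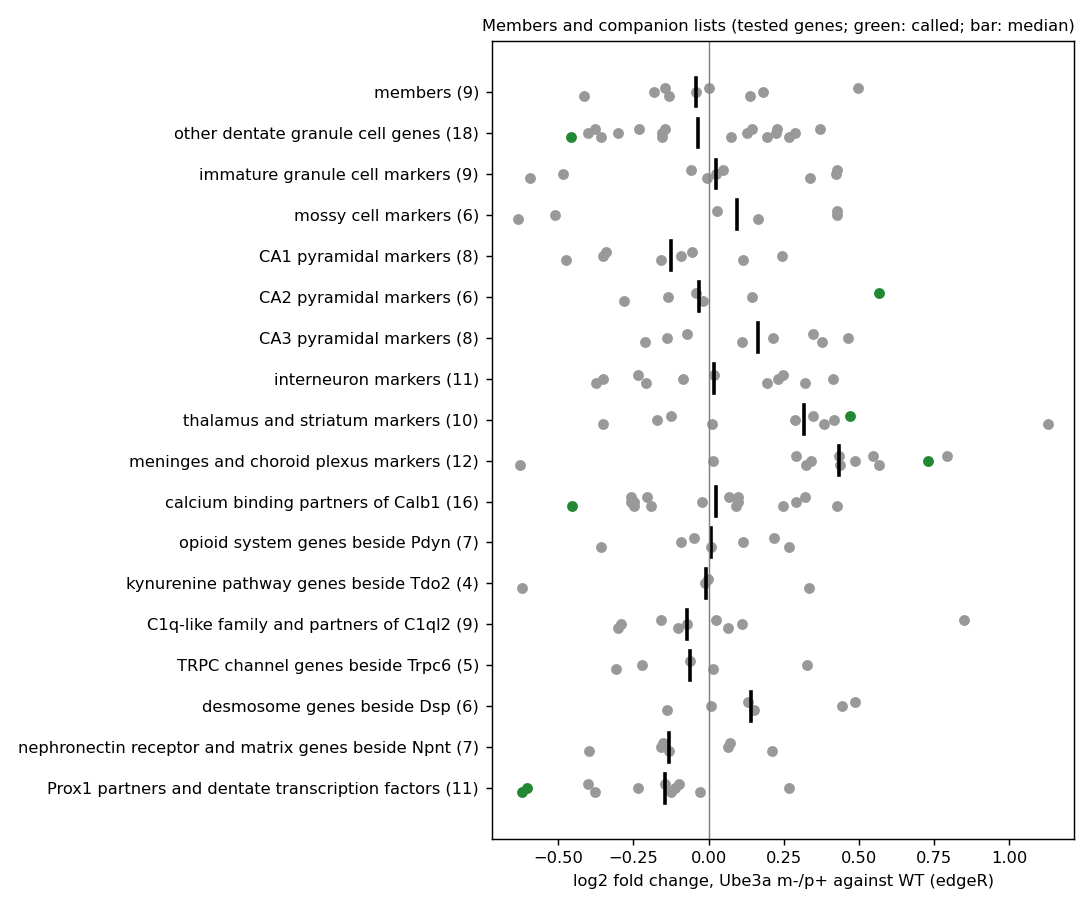
Log2 fold change in Ube3a m-/p+ mice against WT mice (x axis) of every tested gene of the 9 granule cell genes (members) and of the lists described beside them, with the number of genes tested in brackets; green points are differentially expressed genes and bars are medians. The median is -0.04 for the 9 genes, -0.03 for the 18 other granule cell genes, 0.32 for thalamus and striatum and 0.44 for meninges and choroid plexus.

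Since UBE3A was studied as a coactivator of a retinoic acid receptor, the promoters were searched for the half-site of these receptors. RefSeq windows (GRCm38.p6, from 250 bases before to 50 bases after a start site) were at hand for 8 of the 9 genes, in 11 windows; Calb1 was not matched. On either strand the half-site AGGTCA was found in 2 of the 11 windows, of Tdo2 and Npnt, against 16.3% of 32851 windows. Direct repeats of it with spacers of 1, 2 or 5 bases were in none of the 11 windows and in 0.0396%, 0.00913% and 0.00913% of all windows. The E-box CAGCTG and the cyclic AMP response element TGACGTCA were in none, against 16.3% and 1.79% of all windows. The shorter TGACG was in 2 of the 11 windows, of Trpc6 and Npnt, against 20.8% of all windows. The upstream bases of Npnt are shown for the half-site, in capitals. Those of C1ql2 are shown because its log2 fold change as counted was the largest in size of the 9 genes. After the correction C1ql2 was at 0.16 and Tdo2 at 0.27. Each sequence runs 5′ to 3′ in the direction of the gene.
Npnt, chr3:132950292-132950541, minus strand: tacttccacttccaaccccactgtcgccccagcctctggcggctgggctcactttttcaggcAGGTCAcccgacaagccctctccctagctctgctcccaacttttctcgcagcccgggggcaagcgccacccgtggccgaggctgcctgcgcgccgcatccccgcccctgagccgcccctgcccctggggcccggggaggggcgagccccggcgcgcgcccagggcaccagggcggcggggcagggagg
C1ql2, chr1:120340332-120340581, plus strand: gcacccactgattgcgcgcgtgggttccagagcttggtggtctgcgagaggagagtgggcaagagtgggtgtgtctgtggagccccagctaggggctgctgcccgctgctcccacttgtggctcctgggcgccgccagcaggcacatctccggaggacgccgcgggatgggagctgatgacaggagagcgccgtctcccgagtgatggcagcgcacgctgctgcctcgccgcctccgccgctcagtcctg
The half-site of Npnt starts at position -188, where 0 is the first base of the transcript. A match to these letters is a description of the sequence and not a binding site.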

How the data were processed

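RNA of whole hippocampus from 3 WT and 3 Ube3a m-/p+ mice was compared, with 1 library per mouse. The authors deposited raw counts of reads per gene symbol; the submitters' processing notes name STAR 2.7.4a, HTSeq and mm10. The annotation and the strand setting are not given in the sources used here. Summary lines for reads on no gene, ambiguous reads and reads without a unique alignment were left out, and 39.0% to 41.8% of the reads listed lay on genes. The counts on genes per library give, with a biological coefficient of variation of 0.102, the precision stated beside each value.

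After filterByExpr and TMM scaling, the genotypes were compared by the quasi-likelihood test of edgeR (4.0.16, R 4.3.3; two-sided, genotype only), with Benjamini-Hochberg adjustment over 14445 genes. Differential expression meant an adjusted p under 0.05 together with a change of over 1.2-fold. Intervals are 95% intervals of the fit. Log2 CPM for patterns and exact permutation tests used a prior count of 2. The correction fitted natural splines (5 degrees of freedom) in each library to the GC content and the length of a gene's longest transcript in GENCODE M21. Alternatives were DESeq2 1.42.0, other scalings and filters, the replicate number as a block, and leaving out mice. The steps were tested on simulated data.

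The 9 genes and the lists were chosen with earlier results of these data known. Some lists share genes (Calb2, Pvalb, C1ql3, Grik4, Neurod1, Neurod2, Zbtb20, Bcl11b and Lef1), so their counts are not separate. Besides the 9 genes and Ube3a, the genes named were those called in a list, the 3 most abundant of each group of functional partners, genes fixed by name, and those with the nearest pattern. Others named, among them C1ql1, Sox11, Dcx, Tubb3, Map3k15 and Tcf7l2, were chosen after their values were seen. 1 value covered by this rule is not reported here. RT-qPCR and protein data were not analysed here.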

Additional observations from a re-analysis of the deposited data

How the results depend on the processing

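The number of differentially expressed genes over all tested genes, 290, was 967 with DESeq2, 1176 without a filter, 92 after the GC and length correction, 2832 with an unadjusted p and 4138 without both mice numbered 1. It was 0 with the replicate number as a block (edgeR; 2422 genes at an unadjusted p below 0.05) and 13 with the block and the correction together, and it ran from 0 to 2582 with 1 mouse left out, being 2 without Ube3a m-/p+ mouse 3, 1816 without Ube3a m-/p+ mouse 1 and 2582 without WT mouse 1. Same-numbered mice correlated at -0.285, -0.177 and -0.311 in their deviations from the genotype means, so the numbers were not taken as pairs. Of the 9 granule cell genes, 0 were differentially expressed in the edgeR test, and 2, Calb1 and C1ql2, were with DESeq2, without a filter, with an unadjusted p and without both mice numbered 1. With 1 mouse left out the number ran from 0 to 2, being 2 without WT mouse 1 and 1, C1ql2, without Ube3a m-/p+ mouse 1. The number of the 9 without overlap, 1 as reported (against 24.8% of all genes), was 0 after the correction (17.4%) and 5 without both mice numbered 1 (65.6%). It ran from 1 to 5 with 1 mouse left out, being 5 without Ube3a m-/p+ mouse 1 (47.3%) and 2 without WT mouse 1 (49.7%), WT mouse 3 (30.9%) or Ube3a m-/p+ mouse 2 (30.3%). The sign of Tdo2 turned with library size only (-0.017), with the replicate block (-0.0084), without WT mouse 1 (-0.01) or 2 (-0.05), and without Ube3a m-/p+ mouse 2 (-0.0011) or 3 (-0.10), and ran from -0.10 to 0.11 with 1 mouse left out. The sign of Npnt turned without WT mouse 3 (0.022), in a range from -0.088 to 0.022 with 1 mouse left out. The other 7 genes kept their direction under all 16 alternatives. The cause of these changes was not tested. With 3 mice per genotype, the exact permutation test cannot go below p = 0.1, and Tdo2, Pdyn and Trpc6 rest on the fewest counts.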
